A study of Mus musculus with 37 samples.

Results

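Clock output transcription factors were examined in the left ventricle of mice after cardiac arrest or adrenaline alone. The 7 factors were Dbp, Tef, Hlf, Nfil3, Ciart, Bhlhe40 and Bhlhe41. They were chosen by name, 1 row each, from a table of 56748 genes, and all 7 passed the filter on low values that left 16530 genes for testing. Levels are given in FPKM, the number of fragments of a gene scaled to its length and by a factor for each library. They can therefore be set side by side between genes.

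Ventricular RNA was sequenced in bulk in 37 libraries that fall into 9 groups. All mice were C57BL/6J, male and female, aged 8 to 10 weeks, and all were anaesthetised with isoflurane. Naïve mice (n = 5) had anaesthesia only, with no intubation and no injection. Arrest mice (n = 4 at each time) were made asystolic with potassium chloride for 8 min and resuscitated with adrenaline and chest compressions. Adr mice (n = 4 at each time), which the sample labels call sham, received a saline injection into the left ventricle and then adrenaline. Naïve hearts were taken after the baseline imaging, and Adr and Arrest hearts after 0.5, 1, 3 or 7 days. The apex, where the needle had entered, was discarded. A comparison with Naïve therefore also includes the needle, the adrenaline, intubation with ventilation and the time since the procedure. A comparison of Arrest with Adr at the same time does not. It takes in the potassium chloride and the chest compressions along with the asystole. The clock time of collection is not given in the sources used here, so that arrest and time of day cannot be told apart in comparisons with Naïve. Nor is it given whether Arrest and Adr hearts of the same time were collected at the same hour. As the tissue was sequenced whole, fewer cells of a type and less RNA per cell cannot be told apart.

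The circadian clock of mammalian cells is a loop of transcription factors. CLOCK and BMAL1 (gene symbol Arntl) bind E-boxes and switch on, among others, the Per, Cry and Nr1d genes, whose products shut the loop down again. The clock reaches the rest of the genome through output factors. DBP, TEF and HLF are related bZIP activators that bind the D-box, and NFIL3 is a bZIP repressor that binds the same element. BHLHE40 and BHLHE41 are helix-loop-helix repressors that compete at E-boxes, and CIART (also called CHRONO) represses CLOCK and BMAL1. In the heart these factors are known to pass time of day on to metabolism and ion channels. Bhlhe40 and Nfil3 are also known as stress and cytokine response genes in several cell types.

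The elements through which the clock is known to reach these genes were looked for in RefSeq promoter windows (GRCm38.p6, 250 bases before to 50 bases after the start site). Windows were found for 6 of the 7 factors, 7 windows in all because Tef has a pair; Bhlhe40 had no entry. The E-box was searched as CACGTG, which reads the same on both strands, the D-box as TTATGTAA on both strands and the core of the ROR and REV-ERB element (RORE) as AGGTCA on both strands. Of all 32851 windows of the same length, 7.15% hold the E-box, 0.938% the D-box and 16.3% the RORE core. The 250 bases before the start site are shown, 5′ to 3′ on the strand of the gene, for the pair of factors that changed after arrest (Dbp and Nfil3) and for some of the factors whose levels moved with those of another between libraries (Tef, Ciart and Bhlhe41). Hlf, which also moved with others, is not shown. Capitals mark an E-box, or in Nfil3 the RORE core read on the opposite strand.
Dbp, chr7:45704997-45705246, plus strand: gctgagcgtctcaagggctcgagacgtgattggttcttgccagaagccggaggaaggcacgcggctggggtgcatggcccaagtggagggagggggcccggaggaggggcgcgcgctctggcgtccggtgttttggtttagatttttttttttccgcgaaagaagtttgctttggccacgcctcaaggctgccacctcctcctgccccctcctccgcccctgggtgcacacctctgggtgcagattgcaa
Nfil3, chr13:52981040-52981289, minus strand: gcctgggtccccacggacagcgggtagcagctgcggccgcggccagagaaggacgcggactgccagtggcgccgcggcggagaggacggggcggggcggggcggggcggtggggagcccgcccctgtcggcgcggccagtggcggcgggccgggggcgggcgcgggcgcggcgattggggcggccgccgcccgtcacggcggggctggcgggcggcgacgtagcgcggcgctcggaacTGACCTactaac
Tef, chr15:81802423-81802672, plus strand: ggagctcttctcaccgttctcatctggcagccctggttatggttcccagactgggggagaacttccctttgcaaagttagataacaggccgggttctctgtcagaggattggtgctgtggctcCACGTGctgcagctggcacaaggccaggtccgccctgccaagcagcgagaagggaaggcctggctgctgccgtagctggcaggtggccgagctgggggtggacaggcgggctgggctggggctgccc
Ciart, chr3:95882229-95882478, minus strand: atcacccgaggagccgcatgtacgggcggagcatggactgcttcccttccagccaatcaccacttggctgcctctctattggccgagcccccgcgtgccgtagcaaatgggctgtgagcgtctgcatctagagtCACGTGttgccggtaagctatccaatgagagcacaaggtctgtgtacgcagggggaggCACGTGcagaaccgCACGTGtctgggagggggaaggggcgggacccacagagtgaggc
Bhlhe41, chr6:145865421-145865670, minus strand: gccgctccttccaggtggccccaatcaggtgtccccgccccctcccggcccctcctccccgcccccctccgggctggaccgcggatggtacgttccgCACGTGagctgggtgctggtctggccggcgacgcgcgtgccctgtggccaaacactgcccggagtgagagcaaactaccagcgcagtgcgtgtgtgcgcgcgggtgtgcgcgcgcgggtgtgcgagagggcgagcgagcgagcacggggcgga
The Ciart window held 3 E-boxes, 116, 58 and 44 bases before the start site. Bhlhe41 held 1 E-box at 153 bases and Tef held 1 in each of its windows, at 127 bases in the one shown and at 138 in the other (chr15:81811164-81811413). In Nfil3 the RORE core lay 12 bases before the start site, and no E-box was found there. None of the 3 motifs was found in the windows of Dbp and Hlf, and the D-box was found in 0 of the 6 factors. None of these matches overlapped another. They are matches of letters in a short window and say nothing about binding.

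The deposited table places Dbp (ENSMUSG00000059824) on chromosome 7 from 45354512 to 45359627, Tef (ENSMUSG00000022389) on chromosome 15 from 81686622 to 81711064 and Hlf (ENSMUSG00000003949) on chromosome 11 from 90227362 to 90281721. Nfil3 (ENSMUSG00000056749) is given on chromosome 13 from 53121245 to 53135109 and Ciart (ENSMUSG00000038550) on chromosome 3 from 95785815 to 95789563. Bhlhe40 (ENSMUSG00000030103) and Bhlhe41 (ENSMUSG00000030256) both lie on chromosome 6, from 108637590 to 108643886 and from 145803969 to 145811284. The build of these coordinates is not given in the sources used here. It is not that of the promoter windows, since 0 of the 7 genes had the same coordinates in a GRCm38 annotation. Each value is a level of the whole gene, and exons or isoforms were not measured apart.

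Libraries held 13.2 to 30.2 M fragments counted on genes. One Adr library stood apart, that of 3 days, replicate 3, in which genes of the mitochondrial genome took 9.36% of fragments against 20.8% to 30.9% in the other libraries. Naïve replicate 4 had the fewest genes above 0, at 13475, against 15398 to 21377 elsewhere. The cardiomyocyte markers Myh6, Tnnt2, Actc1, Myl2 and Ryr2 summed to 9692 to 11250 FPKM in Naïve, which fits heart muscle. Their sum was 2768 FPKM in the Adr library that stood apart. Monocyte and macrophage markers summed to 540 FPKM in that library against 89.3 to 156 FPKM in Naïve. Atrial markers summed to 485 FPKM in that library against 13.8 to 32.4 FPKM in Naïve. Results that change without it are given beside their values.

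Among the 6 factors detected in every library, Nfil3 and Dbp had the widest ranges. Nfil3 ran from 3.71 to 58.9 FPKM, a 15.9-fold range, and Dbp from 1.48 to 15.9 FPKM, a 10.7-fold range. Tef ranged 4.51-fold (5.4 to 24.3 FPKM), Hlf 5.03-fold (0.961 to 4.83 FPKM), Bhlhe40 3.16-fold (5.2 to 16.4 FPKM) and Bhlhe41 8.06-fold (0.343 to 2.77 FPKM). Ciart was the lowest of the 7, from 0 to 4.22 FPKM on 0 to 154 fragments, and its fold range has no lower end. Much of this range lay within groups. With group means removed, the SD on the log2(FPKM + 1) scale was 0.61 for Dbp, larger than that of 92.9% of the 11506 genes with a mean of at least 1 FPKM, against a median of 0.28 over those genes. It was 0.49 for Nfil3 and for Ciart, larger than that of 87.4% and 87.2% of genes. Bhlhe41 had the smallest, 0.31, still larger than that of 60.4% of genes.

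**Figure D1:**
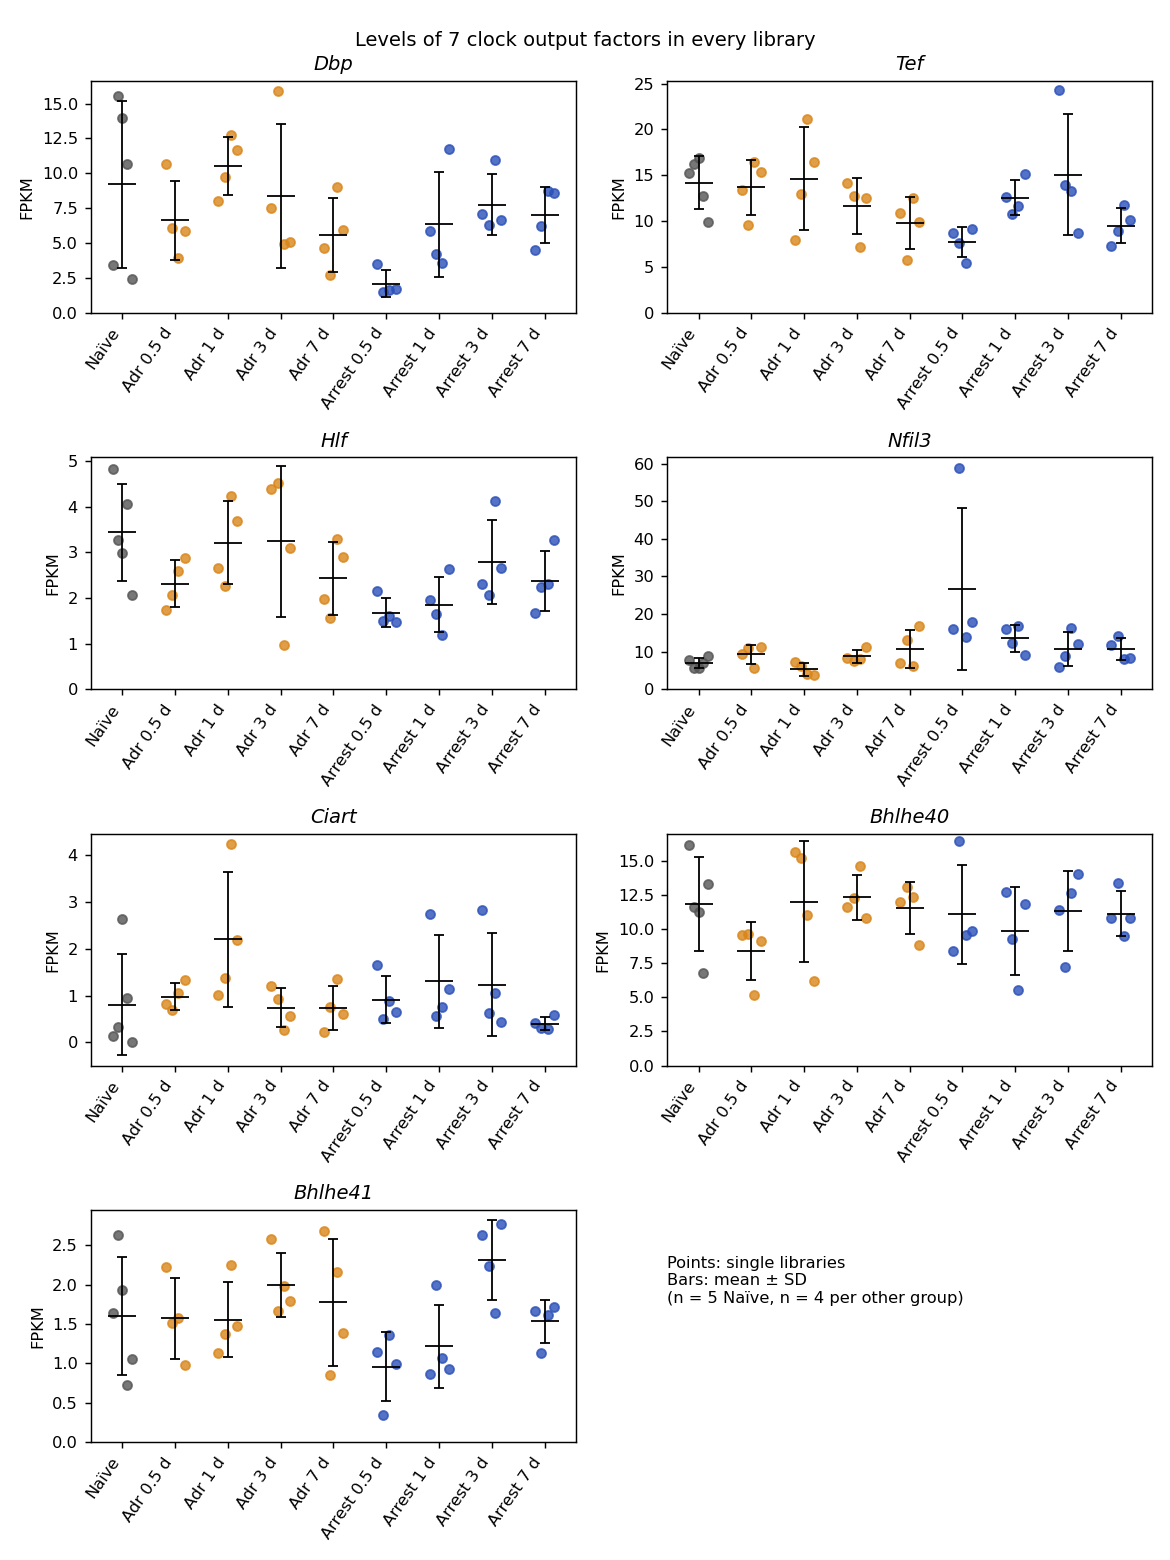
Levels of the 7 factors in FPKM in each of the 37 libraries, by group. Points are single libraries and bars the mean ± SD (n = 5 Naïve, n = 4 in each other group). The 4 Arrest libraries at 0.5 days sit at 1.48 to 3.53 FPKM for Dbp and at 14.0 to 58.9 FPKM for Nfil3.

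At 0.5 days after arrest the activator Dbp was lower and the repressor Nfil3 higher than in Naïve hearts. Of the 7 factors, 2 passed the threshold in this comparison, 1 in each direction, against 3.21% of all genes tested (1.75% higher and 1.46% lower). The mean level of Dbp was 4.41-fold lower and that of Nfil3 3.83-fold higher than in Naïve. Tef and Hlf, the other D-box activators, had lower means than in Naïve, without passing the threshold. No factor passed it in any Adr group, or in Arrest at 1, 3 or 7 days.

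Dbp, an activator of D-box genes, measured 3.46, 15.5, 14.0, 10.7 and 2.41 FPKM in the 5 Naïve libraries [9.2 ± 6 FPKM, SD]. After arrest, at 0.5 days, it measured 3.53, 1.48, 1.61 and 1.73 FPKM [2.09 ± 0.966 FPKM]. All 4 Arrest libraries lay below the Naïve median, but the groups overlapped, because Naïve replicates 1 and 5 were themselves low. On the log2(FPKM + 1) scale the difference was -1.50 (SE 0.388, limma, adjusted p = 0.0294), and an exact permutation test of these 4 and 5 libraries, two-sided, gave p = 0.0476. The call rested on several libraries. It was lost without Naïve replicate 2, 3 or 4 (adjusted p = 0.0793, 0.0700 and 0.0671) and without Arrest replicate 2, 3 or 4 (0.103, 0.0608 and 0.0648), while the difference stayed between -1.83 and -1.26 over all 37 fits that left out 1 library.

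Adr libraries at 0.5 days held 10.7, 6.1, 3.95 and 5.85 FPKM of Dbp [6.64 ± 2.84 FPKM], each above every Arrest library of that time. Dbp then lay at 8.0, 9.73, 12.7 and 11.7 FPKM in Adr at 1 day [10.5 ± 2.1 FPKM], the highest mean of the 9 groups. In that group 3 of the 4 libraries also held more atrial marker RNA than any Naïve library, as did libraries of every other Adr and Arrest group (values with Ciart). In Arrest at 1 day the values were 5.87, 4.19, 3.54 and 11.8 FPKM [6.34 ± 3.75 FPKM], and these again overlapped with Naïve. At 3 days Dbp measured 7.54, 15.9, 4.94 and 5.05 FPKM in Adr and 7.06, 6.29, 11.0 and 6.65 FPKM in Arrest. At 7 days it measured 4.63, 2.75, 9.02 and 5.94 FPKM in Adr and 4.51, 6.26, 8.72 and 8.63 FPKM in Arrest. The order of the group means ran from Adr at 1 day down to Arrest at 0.5 days, and every group overlapped with its neighbours in that order. Differences from Naïve at 3 and 7 days were between -0.45 and 0.01 on the log2 scale.

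Nfil3, the D-box repressor, measured 7.82, 5.56, 5.75, 6.9 and 8.88 FPKM in Naïve [6.98 ± 1.4 FPKM]. In Arrest at 0.5 days it measured 16.1, 58.9, 14.0 and 17.9 FPKM [26.7 ± 21.5 FPKM]. Each of these 4 libraries lay above every Naïve library, as for Tef in the other direction, against 8.2% of all genes whose groups did not overlap. The difference was 1.56 on the log2 scale (SE 0.315, limma, adjusted p = 0.00614), and the exact permutation test, two-sided, gave p = 0.00794, the smallest that 4 against 5 libraries allow. Replicate 2, at 58.9 FPKM, set the size of the mean: without it the difference was 1.10 (adjusted p = 0.0529), and leaving out any other library kept the call.

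The later Arrest libraries held 16.1, 12.3, 16.8 and 9.16 FPKM of Nfil3 at 1 day [13.6 ± 3.56 FPKM], all above every Naïve library, against 10.5% of genes whose groups did not overlap. That difference was 0.85 (SE 0.315, limma, adjusted p = 0.0930), which does not pass the threshold. It passed when Arrest 0.5 days replicate 2 was left out of the shared fit (adjusted p = 0.0383). Nfil3 measured 5.95, 8.8, 16.4 and 12.1 FPKM at 3 days and 11.9, 14.1, 8.13 and 8.29 FPKM at 7 days after arrest, overlapping with Naïve both times. In Adr it measured 9.27, 11.0, 5.7 and 11.2 FPKM at 0.5 days [9.3 ± 2.55 FPKM] and 7.15, 6.15, 4.13 and 3.71 FPKM at 1 day [5.29 ± 1.64 FPKM], the lowest mean of the 9 groups. The Adr values at 3 days were 8.35, 7.41, 8.04 and 11.2 FPKM, and at 7 days they were 7.12, 13.1, 6.22 and 16.8 FPKM. Arrest at 0.5 days had the highest mean and Arrest at 1 day the second highest, and these neighbours overlapped.

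**Figure D2:**
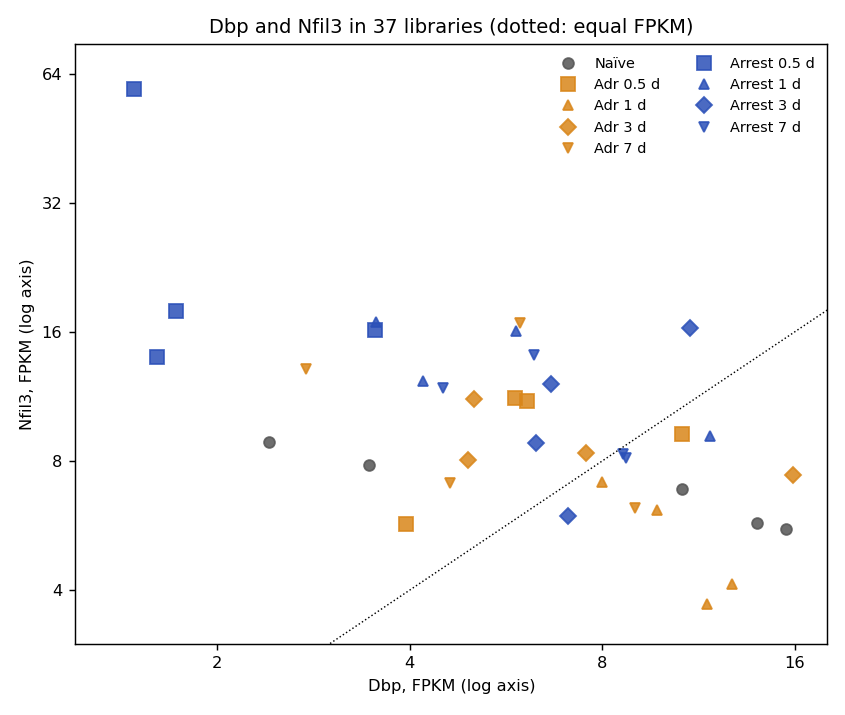
Nfil3 against Dbp in the 37 libraries, both in FPKM on log axes. Symbols give the group, and the dotted line marks equal levels. The 4 Arrest libraries at 0.5 days lie to the upper left, with Dbp to Nfil3 ratios of 0.0252 to 0.219, and the 4 Adr libraries at 1 day lie below the line.

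As DBP and NFIL3 bind the same element with opposite effect, their levels were also set against each other within each library. The ratio of Dbp to Nfil3 FPKM was 0.0252 to 0.219 in the 4 Arrest libraries at 0.5 days, with a median of 0.106. In Naïve it was 0.271 to 2.79, with a median of 1.55. The ranges of these groups did not overlap. The median ratio was 2.33 in Adr at 1 day, 0.623 in Adr at 0.5 days and 0.353 in Arrest at 1 day, and it lay between 0.502 and 0.759 in the Adr and Arrest groups of 3 and 7 days. Nfil3 exceeded Dbp in 23 of the 37 libraries, in 4 of 4 Arrest libraries at 0.5 days, in 0 of 4 Adr libraries at 1 day and in 2 of 5 Naïve libraries. The ratios are a description, chosen with the levels of both genes known, and were not tested.

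Tef, the D-box activator with the highest level of the 3, measured 15.3, 16.3, 16.8, 12.7 and 9.88 FPKM in Naïve [14.2 ± 2.88 FPKM]. The Arrest libraries of 0.5 days measured 8.68, 7.63, 5.4 and 9.12 FPKM [7.71 ± 1.66 FPKM], each below every Naïve library. It measured 13.4, 9.56, 16.5 and 15.3 FPKM in Adr at 0.5 days [13.7 ± 3.02 FPKM]. The difference of Arrest at 0.5 days from Naïve was -0.80 (SE 0.249, limma, adjusted p = 0.0693), just outside the threshold. It passed when the Adr library that stood apart was left out of the shared fit (adjusted p = 0.0413), or without Adr 1 day replicate 1 (0.0492) or Arrest 3 days replicate 1 (0.0451), but not when Naïve replicate 4 was left out with it (0.0532). One day after arrest Tef measured 12.6, 10.8, 11.7 and 15.1 FPKM, all above the values at 0.5 days. The highest mean was that of Arrest at 3 days [15.1 ± 6.59 FPKM], in which replicate 1 measured 24.3 FPKM. At 7 days the means were 9.76 ± 2.85 FPKM in Adr and 9.53 ± 1.91 FPKM in Arrest, with the same difference from Naïve in both arms, -0.52 (SE 0.249, limma, adjusted p = 0.80 and 0.97). With the number in the sample description as a covariate these were -0.32 and -0.30, and without Adr 7 days replicate 2 the first was -0.31. Every Naïve library had a higher number than every Adr library of 7 days, so number and group cannot be fully told apart there.

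Hlf, the least abundant of the 3 activators, had its highest mean in Naïve, where it measured 4.83, 3.26, 2.97, 4.05 and 2.06 FPKM [3.43 ± 1.06 FPKM]. Its lowest mean was in Arrest at 0.5 days, at 2.15, 1.49, 1.6 and 1.47 FPKM [1.68 ± 0.32 FPKM], followed by Arrest at 1 day, at 1.95, 1.65, 1.18 and 2.63 FPKM [1.85 ± 0.607 FPKM]. Both groups overlapped with Naïve through Naïve replicate 5. The differences were -0.70 at 0.5 days (SE 0.235, limma, adjusted p = 0.0935) and -0.62 at 1 day (SE 0.235, adjusted p = 0.102). With the number in the sample description as a covariate the difference at 1 day was -0.15 (adjusted p = 0.907). Every Naïve library had a higher number than every Arrest library of 1 day, so that fit cannot fully tell the number from the group. Without the Adr library that stood apart both passed the threshold, with adjusted p = 0.0289 and 0.0359, and without that library and Naïve replicate 4 neither did (0.0620 and 0.0760). That Adr library had the lowest Hlf of all 37, 0.961 FPKM, while the other Adr libraries of 3 days measured 4.37, 4.51 and 3.09 FPKM. Means in the groups not yet given lay between 2.31 and 3.23 FPKM.

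Ciart, a repressor of CLOCK and BMAL1, was measured on few fragments, a median of 32 per library. In Naïve it measured 0.141, 0.334, 2.63, 0.943 and 0 FPKM, from 5, 12, 78, 29 and 0 fragments. A count of 0 in that library allows up to 0.0986 FPKM (3 fragments). Its highest mean was in Adr at 1 day, at 1.02, 1.37, 4.22 and 2.18 FPKM [2.2 ± 1.43 FPKM], which overlapped with Naïve. The difference was 0.89 (SE 0.316, limma, adjusted p = 0.168), with a 95% interval of 0.24 to 1.53 that holds for the pseudocount of 1 only. With a pseudocount of 0.1 it was 2.01 (adjusted p = 0.125) and with limma-voom on recovered fragments 2.75 (adjusted p = 0.0787). Atrial markers (Myl7, Nppa, Sln and Myl4) were also higher in some of these libraries, with sums of 30.0, 693, 158 and 49.3 FPKM in replicates 1 to 4 against 13.8 to 32.4 FPKM in Naïve. None of the 4 passed the threshold by limma and 3 did at the unadjusted level, with a median difference of 2.70, and Sln was at 0 in every Naïve library. The highest Ciart was in replicate 3 and the highest atrial sum in replicate 2. Adr at 7 days held atrial sums of 108, 29.1, 144 and 198 FPKM, also with 3 of the 4 markers at the unadjusted level. Its mean level was 0.740 FPKM for Ciart and 5.59 FPKM for Dbp. The part of atrial tissue in the levels of these groups was not tested. Ciart in Arrest at 0.5 days measured 1.64, 0.497, 0.882 and 0.639 FPKM, and the interval of its difference from Naïve ran from -0.43 to 0.86, which covers differences in both directions. That difference was 0.22, or 0.91 with the smaller pseudocount and 1.45 with limma-voom (adjusted p = 0.473 and 0.397). The lowest mean was that of Arrest at 7 days, 0.404 ± 0.137 FPKM, from 9 to 39 fragments.

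Bhlhe40, an E-box repressor that other stimuli also induce, had similar means in most groups, from 8.36 ± 2.12 FPKM in Adr at 0.5 days to 12.3 ± 1.65 FPKM in Adr at 3 days. It measured 16.2, 11.6, 11.2, 6.8 and 13.3 FPKM in Naïve and 8.39, 16.4, 9.56 and 9.88 FPKM in Arrest at 0.5 days. The highest of the Arrest values, 16.4 FPKM, was in the library that also had the highest Nfil3. The difference from Naïve was -0.08 (SE 0.245, 95% interval -0.58 to 0.41), and its sign depended on single libraries, as it was 0.032 without Naïve replicate 1 and 0.02 without Arrest replicate 1. Adr at 0.5 days measured 9.54, 9.6, 5.2 and 9.1 FPKM, with a difference from Naïve of -0.44 (SE 0.245, limma, adjusted p = 0.435).

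Bhlhe41, the relative of Bhlhe40, was lower throughout, with a mean of 1.61 FPKM over all libraries against 11.1 FPKM for Bhlhe40. It measured 1.65, 2.63, 1.92, 0.722 and 1.05 FPKM in Naïve. Its lowest mean was in Arrest at 0.5 days, at 1.15, 0.343, 1.36 and 0.985 FPKM [0.959 ± 0.438 FPKM], and its highest in Arrest at 3 days, at 2.63, 2.23, 1.64 and 2.77 FPKM [2.32 ± 0.506 FPKM]. Against Naïve the differences were -0.39 (SE 0.208, limma, adjusted p = 0.328) and 0.39 (SE 0.208, adjusted p = 0.411), and both groups overlapped with Naïve. The 95% intervals ran from -0.81 to 0.04 and from -0.04 to 0.81. At 0.5 days the difference was -0.22 without Arrest replicate 2 and -0.25 without Naïve replicate 2. With a pseudocount of 0.1 it was -0.69 and with limma-voom -0.81 (adjusted p = 0.287 and 0.293).

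**Figure D3:**
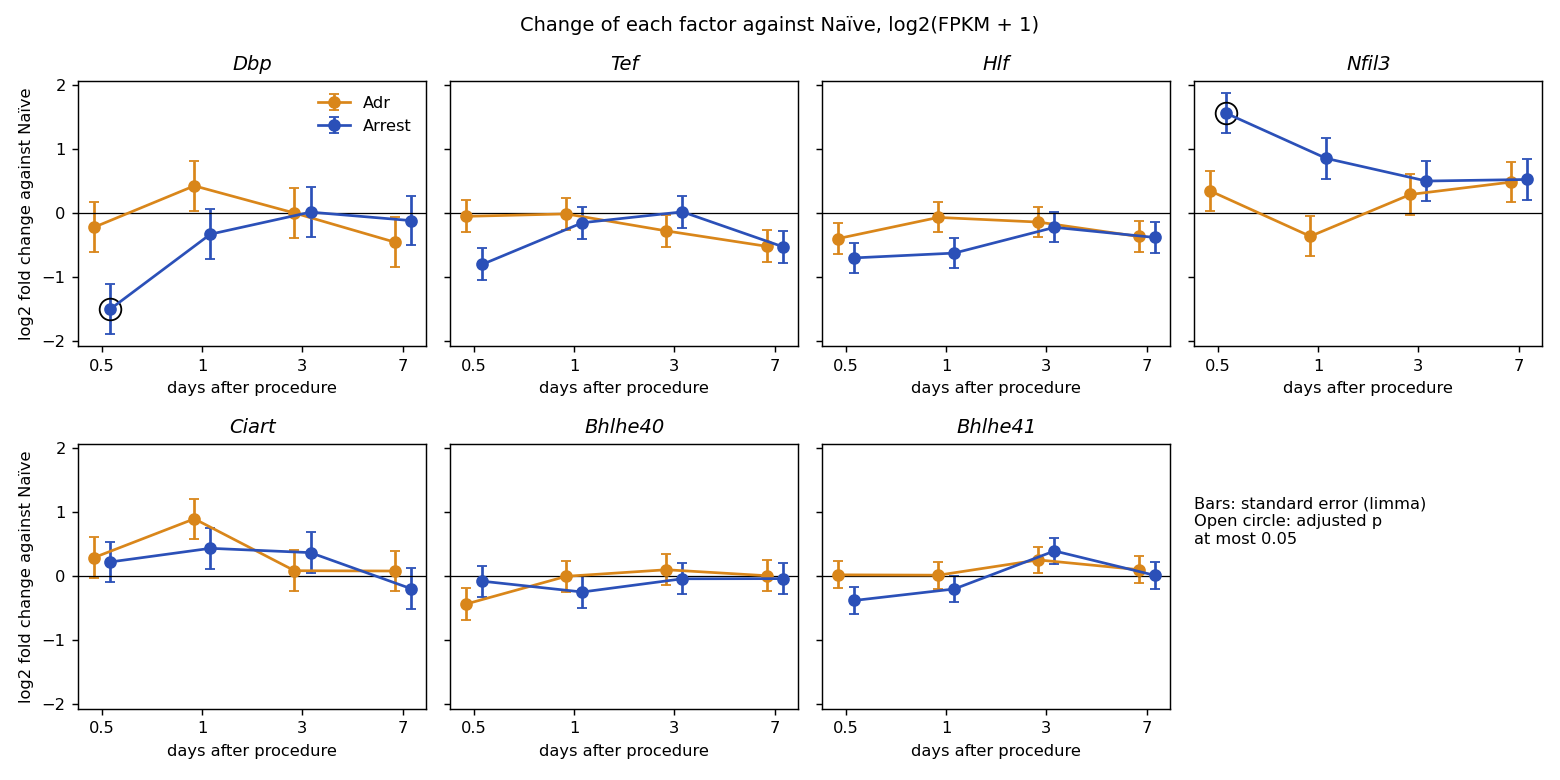
Difference of each factor from Naïve on the log2(FPKM + 1) scale, by days after the procedure, for Adr and Arrest. Bars are standard errors of the limma fit, and open circles mark an adjusted p of at most 0.05. Only Dbp (-1.50) and Nfil3 (1.56) in Arrest at 0.5 days are circled.

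Against all genes tested, the count of factors past the threshold by limma was above 0 only in Arrest at 0.5 days. At an unadjusted p of at most 0.05, 4 of the 7 factors passed in that comparison (Dbp, Tef, Hlf and Nfil3), against 18.2% of all genes. Arrest at 1 day had 0 of 7 past the adjusted threshold, by limma and by limma-voom on recovered fragments, against 7.11% of genes, and 2 of 7 at the unadjusted level (Nfil3 and Hlf) against 21.7%. In Arrest at 3 and 7 days the unadjusted counts were 0 and 1 (Tef) of 7, against 13.7% and 5.15% of genes. The Adr groups had, in order of time, 0, 1 (Ciart), 0 and 1 (Tef) of 7, against 14%, 14.7%, 13.9% and 6.15%. After adjustment 0 of 7 passed at each of these times by limma and by limma-voom, against 0.188%, 0.69%, 0% and 0% of genes in Adr and 0.139% and 0% in Arrest at 3 and 7 days. The median difference of the 7 factors from Naïve in Arrest at 0.5 days was -0.39, and that of all genes tested was 0.03. In the Adr groups, again in order of time, 0 of 7 factors lay apart from Naïve without overlap, against 6.33%, 5.25%, 2.38% and 1.79% of genes, and in Arrest at 3 and 7 days 0 of 7 did, against 3.51% and 1.69%. All 8 comparisons share the 5 Naïve libraries.

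Arrest was also compared with Adr at the same time, which asks what arrest adds to the needle and the adrenaline. As clock times are not given, a difference in time of day between the arms cannot be told apart from arrest here either. At 0.5 days Dbp was lower by -1.28 (SE 0.409), Tef by -0.75 (SE 0.263) and Nfil3 higher by 1.21 (SE 0.332), or by 0.76 without Arrest replicate 2. For all 3 genes every Arrest library lay on the same side of every Adr library, against 3.62% of all genes whose groups did not overlap. None passed the threshold over all genes by limma (adjusted p = 1 for Dbp and Tef and 0.687 for Nfil3), where 0% of the 16530 genes did. At the unadjusted level 3 of 7 passed, against 3.86%. The exact permutation test, two-sided, gave p = 0.0286 for each of the 3, the smallest that 4 against 4 libraries allow. Groups of this size that do not overlap always give this value, so it adds nothing to the lack of overlap.

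At 1 day Nfil3 again lay higher in every Arrest library than in every Adr library, by 1.22 on the log2 scale (SE 0.332, limma, adjusted p = 0.466), against 3.68% of genes whose groups did not overlap. Part of this gap came from the Adr side, where the Nfil3 mean of 5.29 FPKM was below that of Naïve. Hlf differed by -0.56 (SE 0.248, adjusted p = 0.725) and overlapped between the groups. These 2 genes passed at the unadjusted level, against 6.59% of genes. At 3 and 7 days 0 of 7 passed at the adjusted level, against 0% and 0.00605% of genes, and 0 of 7 at the unadjusted level, against 5.37% and 2.52%, and the largest difference of a factor at these times was 0.34, for Dbp at 7 days.

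Since the factors cycle over the day in most tissues, 0.5 days was set against the times that lie a whole number of days after the procedure. In both arms 0.5 days was also the earliest time sampled. As clock times are not given, this contrast cannot tell time of day from time since the procedure. In Arrest, Dbp at 0.5 days was below the mean of 1, 3 and 7 days by -1.36 (SE 0.334, limma, adjusted p = 0.206), and its rank by p was 24 among the 16530 genes. An exact permutation test of the 4 against the 12 libraries, two-sided, gave p = 0.000549, the smallest it allows. Nfil3 differed by 0.93 (SE 0.271, adjusted p = 0.324), Tef by -0.58 (SE 0.214, adjusted p = 0.572) and Bhlhe41 by -0.45 (SE 0.179, adjusted p = 0.606). Without Arrest replicate 2 of 0.5 days these differences were 0.48 for Nfil3 and -0.28 for Bhlhe41. These 4 of 7 factors passed at the unadjusted level, against 6.58% of genes, and 0 of 7 after adjustment, as for 0% of all genes. In Adr the same contrast for Dbp was -0.21 (SE 0.334), with a 95% interval of -0.89 to 0.47, and Bhlhe40 was the only factor at the unadjusted level, at -0.47 (SE 0.211, adjusted p = 0.767) and -0.28 without Adr replicate 3, against 6.41% of genes, with 0 of 7 after adjustment, against 0.0302%.

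From 0.5 to 1 day, Dbp and Tef in Arrest moved without overlap, from 1.48 to 3.53 up to 3.54 to 11.8 FPKM for Dbp and from 5.4 to 9.12 up to 10.8 to 15.1 FPKM for Tef. For Dbp the highest value of the earlier group and the lowest of the later one nearly touched. The differences of 0.5 from 1 day were -1.17 (SE 0.409) for Dbp and -0.65 (SE 0.263) for Tef, with a limma adjusted p of 1 for both, and 2.44% of all genes had groups that did not overlap. Nfil3 differed between these times by 0.70 in Arrest and 0.71 in Adr (SE 0.332 for each), but without Arrest 0.5 days replicate 2 the difference in Arrest was 0.25. At the unadjusted level 3 of 7 factors passed in Arrest, against 2.93% of genes, and 1 of 7 in Adr, against 2.79%, and after adjustment 0 of 7 passed in either arm, as for 0% of genes. The change from 0.5 to 1 day was also compared between the arms, and 0 of 7 factors passed at the unadjusted level, against 3.3% of genes. For Dbp this difference between the arms was -0.52 with a 95% interval of -1.70 to 0.66, and for Nfil3, with that library included, it was 0.00 with an interval of -0.96 to 0.95. From 1 to 7 days in Adr, Dbp was higher at 1 day by 0.88, Ciart by 0.81 and Nfil3 lower by -0.84 (limma, adjusted p = 0.485, 0.395 and 0.366), 3 of 7 factors at the unadjusted level, against 9.68% of genes, and 0 of 7 after adjustment, against 0.0423%. In Arrest 0 of 7 passed between 1 and 7 days at either level, against 1.89% and 14.9% of genes.

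The rest of the clock was described from a list of 16 core clock genes, all of them tested. In Arrest at 0.5 days 1 of 16 passed the threshold against Naïve, in the downward direction, against 3.21% of all genes, and 6 of 16 at the unadjusted level, 2 higher and 4 lower, against 18.2%. This gene was Nr1d1, which encodes REV-ERBα, the repressor of Arntl and Nfil3 that acts through ROREs. It measured 18.2, 25.1, 20.0, 23.4 and 16.5 FPKM in Naïve and 18.8, 7.32, 9.66 and 11.3 FPKM in Arrest at 0.5 days. Replicate 1 of the Arrest libraries lay within the Naïve range and the other 3 below it. The difference was -0.82 (SE 0.201, limma, adjusted p = 0.0230). Arntl, the BMAL1 gene, measured 1.78, 1.84, 1.93, 2.23 and 2.67 FPKM in Naïve and 3.48, 4.03, 3.59 and 3.84 FPKM in Arrest at 0.5 days. These values did not overlap, against 8.2% of all genes whose groups did not. The difference of Arntl was 0.62 (SE 0.197, adjusted p = 0.0758).

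Per1 and Per2, which close the negative limb of the loop, had differences from Naïve of -0.01 and -0.06 in Arrest at 0.5 days (limma, adjusted p = 1 and 0.949). Per1 measured 8.77, 20.1, 7.61 and 13.0 FPKM in these libraries against 8.06 to 15.6 FPKM in Naïve, with its highest value in the library with the highest Nfil3. Nr1d1 at 1 day after arrest measured 18.3, 20.6, 12.4 and 22.5 FPKM, with a difference from Naïve of -0.17 (adjusted p = 0.691). Per3 and Nr1d2, a paralogue of Nr1d1, were chosen for mention after their values were seen. Per3 measured 1.88, 2.4, 2.47, 1.8 and 1.19 FPKM in Naïve and 1.17, 0.825, 0.616 and 0.793 FPKM in Arrest at 0.5 days, with a difference of -0.66 (SE 0.213, limma, adjusted p = 0.0817). Nr1d2 measured 19.6, 19.4, 18.4, 17.0 and 17.0 FPKM in Naïve and 14.4, 11.3, 8.73 and 14.1 FPKM in Arrest, with a difference of -0.58 (SE 0.186, adjusted p = 0.0798). Neither passed the threshold. For both every Arrest library lay below every Naïve library, against 8.2% of all genes whose groups did not overlap. How many of the 16 core genes did so was not counted. None of the 16 core genes passed the threshold by limma in Arrest at 1 day or in Adr at 0.5 or 1 day. At the unadjusted level 3, 2 and 1 of 16 passed, against 21.7%, 14% and 14.7% of all genes.

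**Figure D4:**
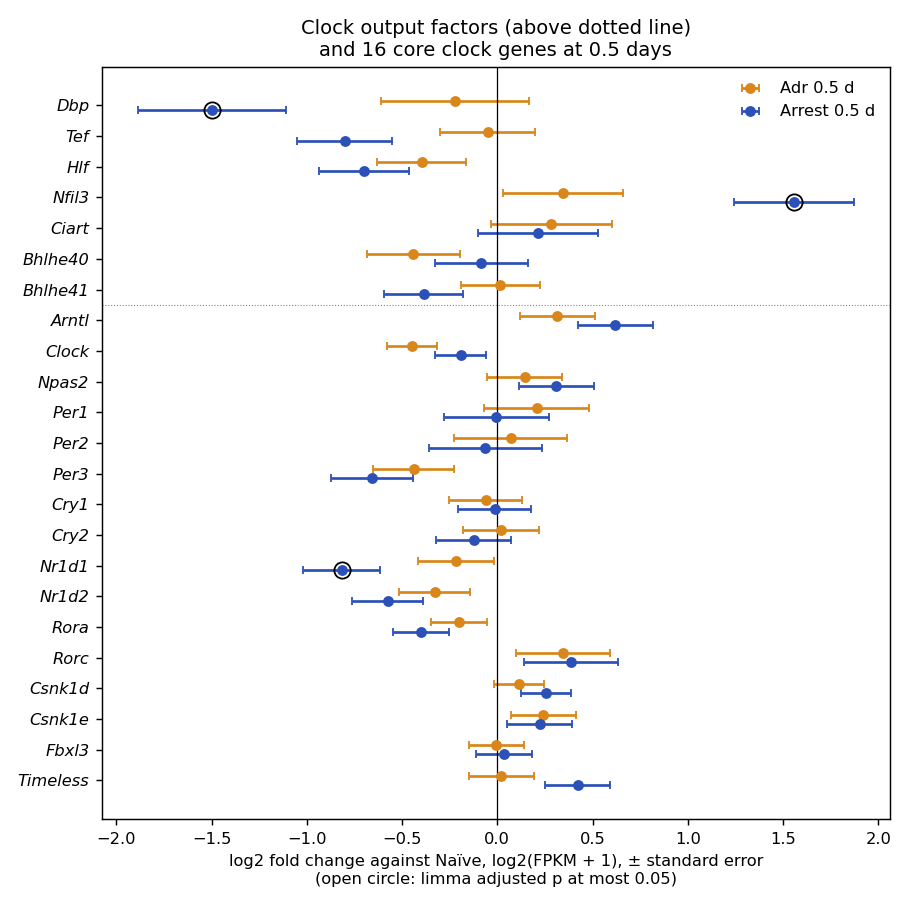
Difference from Naïve at 0.5 days on the log2(FPKM + 1) scale for the 7 factors and 16 core clock genes, for Adr and Arrest. Points are estimates, bars standard errors of the limma fit, and open circles mark an adjusted p of at most 0.05. Dbp, Nfil3 and Nr1d1 are circled, all in Arrest.

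Known output genes of the clock, D-box targets among them, made a second list, of which 16 of 17 genes were tested. In Arrest at 0.5 days 1 of them passed against Naïve and at 1 day 2 did, all higher, against 3.21% and 7.11% of all genes. Fkbp5, a glucocorticoid target and co-chaperone of the receptor, rose by 2.13 at 0.5 days (SE 0.574, limma, adjusted p = 0.0358) and by 2.28 at 1 day (SE 0.574, adjusted p = 0.0138). Tspan4, a membrane tetraspanin, rose by 0.81 at 1 day (SE 0.210, adjusted p = 0.0164). In Adr at 0.5 and 1 day 0 of 16 passed by limma and 2 and 3 at the unadjusted level, against 14% and 14.7% of all genes, with Fkbp5 at 1.80 and 1.43 (adjusted p = 0.148 and 0.231). The median difference of the 16 genes in Arrest at 0.5 days was 0.11, against 0.03 for all genes.

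Genes that are known to induce or to oppose these factors in other settings made a further list of 11, all tested. At 0.5 days after arrest 4 of 11 passed, 3 higher and 1 lower, against 3.21% of all genes. Stat3, the factor that carries interleukin-6 signals, rose by 0.91 (SE 0.155, limma, adjusted p = 0.00122), and Id2 and Id3, inhibitors of helix-loop-helix factors, by 1.15 (SE 0.289, adjusted p = 0.0256) and 0.64 (SE 0.170, adjusted p = 0.0342). Nr3c1, the glucocorticoid receptor, fell by 0.69 (SE 0.127, adjusted p = 0.00327). At 1 day after arrest 5 of 11 passed, against 7.11% of all genes, with Id1 (0.90, adjusted p = 0.0161) added to the same 4. Nr3c1 was the only one to pass in Adr, at 0.5 days (-0.60, adjusted p = 0.0374) and at 1 day (-0.54, adjusted p = 0.0421). In the other comparisons with Naïve none of these 3 lists had a gene past the threshold.

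Markers of other cells were read in the same libraries, since Nfil3 and Bhlhe40 are also expressed by leukocytes. The 5 neutrophil markers summed to 10.1, 31.9, 3.51 and 17.8 FPKM in Arrest at 0.5 days and to 0 to 9.74 FPKM in Naïve, with 4 of the 5 tested and 0 past the threshold by limma (3 of 4 at the unadjusted level, median difference 1.31). Ly6g, a defining neutrophil marker, was at 0 in every library of both groups, and Retnlg was at 0 in every Naïve library. Among the Arrest libraries of 0.5 days, the one with the highest neutrophil sum, replicate 2, was the one with the highest Nfil3. Replicate 2 also had the highest skeletal muscle sum (728 FPKM) and atrial sum (73.2 FPKM) of these libraries. The highest neutrophil sum and the highest Nfil3 also shared a library in Adr at 0.5, 1 and 7 days and Arrest at 1 day. They did not in Naïve, in Adr at 3 days or in Arrest at 3 and 7 days. In Naïve and in Arrest at 3 days the library with the highest neutrophil sum had the lowest Nfil3. Monocyte and macrophage markers summed to 107 to 164 FPKM in Arrest at 0.5 days and to 89.3 to 156 FPKM in Naïve, with 0 of 6 past the threshold and 0 at the unadjusted level. The part of these cells in the values of Nfil3 was not tested. Among the markers of 9 further kinds of cell (cardiomyocytes, atrial cells, fibroblasts, endothelium, smooth muscle, lymphocytes, red cells, skeletal muscle and adipocytes) only endothelial Kdr passed, lower by -0.95 (SE 0.224, limma, adjusted p = 0.0181), while the endothelial sum was 99.1 to 137 FPKM against 105 to 124 FPKM in Naïve. Cardiomyocyte sums were 8043 to 11976 FPKM in Arrest at 0.5 days, which overlapped with Naïve.

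Whether the factors moved together from library to library was asked with group means removed, so that the differences between groups play no part. Among 28 relations, 21 between factors and 7 of a factor with Arntl, 6 passed by Pearson's r after adjustment (permutation within groups, 100000 resamples, two-sided), 4 positive and 2 negative, and 5 of them by Spearman's rho as well. The D-box activators went together. Tef and Hlf had r = 0.53 (rho 0.50, adjusted permutation p = 0.0229 and 0.0275), Dbp and Hlf r = 0.50 (rho 0.54, 0.0497 and 0.0188) and Dbp and Tef r = 0.46 (rho 0.49, 0.0229 and 0.0222). Without the 2 libraries farthest from the median of the first gene, these r were 0.57, 0.39 and 0.41. Libraries share depth and composition, which such relations also carry.

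Ciart moved with Tef, at r = 0.59 (rho 0.56, adjusted permutation p = 0.0174 and 0.0188), and r was 0.53 without the 2 farthest libraries. In Naïve the 2 libraries with the lowest Dbp, replicates 1 and 5, also had the lowest Ciart and the highest Nfil3. They went opposite ways in Hlf, at 4.83 and 2.06 FPKM, the highest and the lowest Naïve values. The same held in reverse for Arntl, at 1.78 and 2.67 FPKM, the lowest and the highest in Naïve. The strongest relation of all was a negative one between Nfil3 and Bhlhe41, at r = -0.61 (rho -0.63, adjusted permutation p = 0.0174 and 0.00868), with r = -0.55 without the 2 farthest libraries. Nfil3 and Tef had r = -0.44 (rho -0.60), which passed by rho (adjusted permutation p = 0.00868) but not by r (0.0566). The same held for Ciart with Dbp (r = 0.49, rho 0.54, adjusted permutation p = 0.0563 and 0.0188) and with Hlf (r = 0.39, rho 0.47, 0.0770 and 0.0374). Dbp and Arntl, which peak at opposite times of day in many tissues, had r = -0.54 (rho -0.45), which passed by r (adjusted permutation p = 0.0174) but not by rho (0.0716). Dbp and Nfil3, the pair that changed after arrest, had r = -0.33 within groups (rho -0.34, adjusted permutation p = 0.0770 and 0.101). Bhlhe40 had no relation past the threshold with any factor, the nearest being r = 0.38 with Nfil3 (adjusted permutation p = 0.0770).

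Without the Adr library that stood apart and Naïve replicate 4, 4 of the 28 relations passed by r. Those of Hlf with Dbp (r = 0.48) and with Tef (r = 0.46) then passed by rho only (adjusted permutation p = 0.0362 and 0.0405). Without Arrest 0.5 days replicate 2, the library with the highest Nfil3, 7 passed, and Tef with Nfil3 was then among them (r = -0.56, adjusted permutation p = 0.0231).

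**Figure D5:**
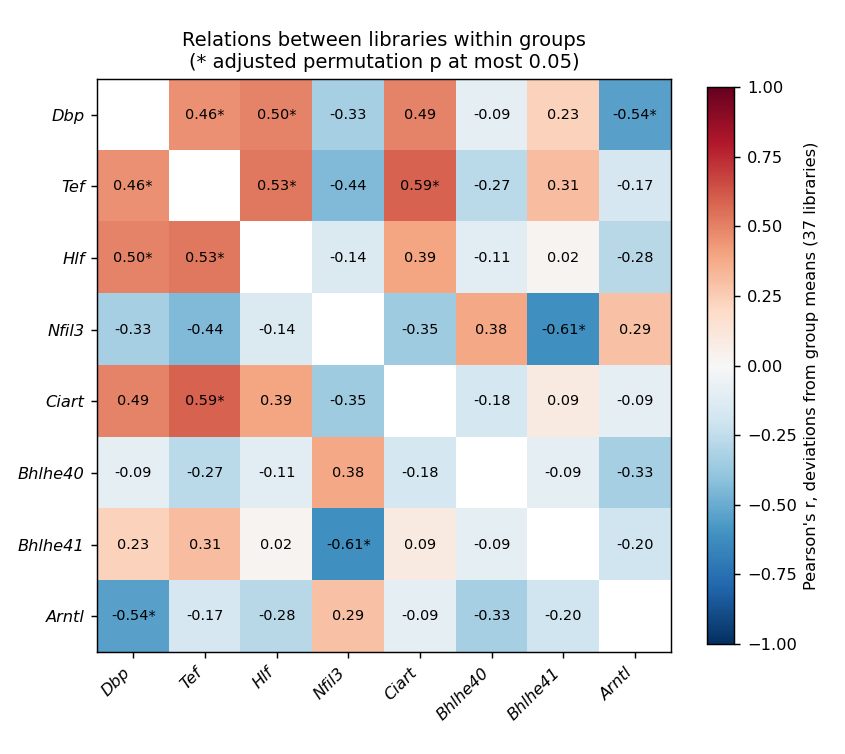
Pearson's r between the 7 factors and Arntl over 37 libraries after removal of group means, on the log2(FPKM + 1) scale. Colour and number give r, and a star an adjusted permutation p of at most 0.05. The block of Dbp, Tef, Hlf and Ciart is positive throughout, from 0.39 to 0.59, and Nfil3 is negative with each of them, from -0.14 to -0.44.

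The genes most like each factor were looked for among 11505 genes over all 37 libraries, with group differences left in, as a description. The genes nearest to Dbp were Nr1d1 (r = 0.75), Per3 (0.71) and Mdp1 (0.66), and those nearest to Tef were Nr1d2 (0.70), Per3 (0.68) and Pik3ip1 (0.66). Hlf was nearest to Nr1d2 (0.67), Actr3b (0.66) and Pde1c (0.64). Core clock genes thus led the search for all 3 D-box activators. For Nfil3 the nearest were Arid5a (r = 0.73), Atf3 (0.70), a stress response factor, and Abra (0.69), and the lowest r of all genes was that of Nr1d1 (-0.74). The lowest r were those of Fosl2 for Dbp (-0.70), Tmem39a for Tef (-0.68) and Syk for Hlf (-0.66). Points here share their groups, so that one group can carry an r.

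No clock gene led the search for the other 3 factors. Ciart was nearest to Eya2 (r = 0.64), Nudt22 (0.62) and Dpep1 (0.62) and farthest from Tbck (-0.64). Bhlhe40 was nearest to Lrrc32 (0.78), Gnb1 (0.72) and Stbd1 (0.68) and farthest from Mlycd (-0.69). Bhlhe41 was nearest to Dpysl2 (0.64), Med22 (0.61) and Lhpp (0.60) and farthest from Rraga (-0.66).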

How the data were processed

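RNA of left ventricular tissue was sequenced in bulk in 37 libraries, and HISAT2 was the aligner the study names. What the authors deposited is a single FPKM table of 56748 genes that also lists lengths, symbols and coordinates. The genome build, annotation and counting tool are not given in the sources used here. FPKM times gene length gave whole fragments in 100% of values (tolerance 0.01), which yielded depth. Median-ratio scaling gave the same factor in every library. Values were converted to log2(FPKM + 1). A gene was kept if 4 or more libraries reached 0.5 FPKM, which left 16530. A single limma fit (version 3.58.1, R 4.3.3, empirical Bayes with trend) gave each group its own mean. P-values were adjusted by Benjamini-Hochberg within each comparison, at a threshold of 0.05. Fold changes on this scale understate changes of low genes. DESeq2, which the authors used, needs counts and was not run; limma-voom on recovered fragments was an alternative, with the pseudocount (0.1), scaling, filter, weights, covariates, length trend, replicate block, and each library left out. The fit was also run on simulated libraries with known changes and a single setting of the spread for all genes. Dbp varied more within groups than most genes did, so that run does not measure the error rate for these factors.

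The members, the lists and the tests were chosen with earlier results of these data known. All 7 members are named. Of the other clock lists, Arntl, Nr1d1, Per1, Per2 and every gene past the threshold are named, as are the 3 genes with the highest and the 1 with the lowest r with each member. No 2 of the 666 pairs of libraries held identical values, and nothing in the labels ties libraries to mice, litters or days of procedure, so that p-values measure only the spread between these libraries, which may in part be technical. The study excluded a poor-quality Adr sample of 3 days, and the labels do not say whether it is among the 4 analysed here. The number in each sample title did not pair samples. Depth limits precision for counting error only.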

Additional observations from a re-analysis of the deposited data

Results flagged for a closer look

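Of 63 groups of values (7 factors in 9 groups), 4 held a library far from the others of its group by Dixon's test at the 95% level, which chance gives in about 1 of 20 groups. Nfil3 in Arrest at 0.5 days had its highest value in replicate 2, 58.9 FPKM, with the next at 17.9 FPKM. Dbp in the same group had its highest value in replicate 1, 3.53 FPKM, with the next at 1.73 FPKM. Dbp in Arrest at 3 days had its highest value in replicate 3, 11.0 FPKM, with the next at 7.06 FPKM. Bhlhe40 in Adr at 0.5 days had its lowest value in replicate 3, 5.20 FPKM, with the next at 9.10 FPKM.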

How the results depend on the processing

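The factors past the threshold in Arrest at 0.5 days against Naïve numbered 2 in the reported fit (Dbp and Nfil3). The number was 1 (Nfil3) with no filter on low values, with the number in the sample description as a covariate and with limma-voom on recovered fragments, and 0 when only these 9 libraries were fitted. Dbp then had adjusted p = 0.0600, 0.0943, 0.0812 and 0.168, at differences of -1.93 to -1.27, and Nfil3 in the fit of 9 libraries 0.0782. The description number was higher in every Naïve library than in Arrest 0.5 days replicates 1, 2 and 3. Every number of Arrest at 1 day was below those of both groups. Number and group are thus partly confounded in fits with that covariate. Leaving out 1 library at a time gave 0 to 4 factors. It gave 0 without Arrest 0.5 days replicate 2, 1 (Nfil3) without Naïve replicate 2, 3 or 4 or Arrest 0.5 days replicate 3 or 4, and 4 (with Tef and Hlf) without Adr 3 days replicate 3. Tef passed with sample quality weights (adjusted p = 0.0411) and with sex, as read from the libraries, as a covariate (0.0328). In Arrest at 1 day the number, 0 in the reported fit, was 1 when only the groups compared were fitted (Nfil3) and 1 with sample quality weights (Hlf), and 0 to 1 when 1 library was left out: 1 (Hlf) without Adr 3 days replicate 3 and 1 (Nfil3) without Arrest 0.5 days replicate 2. The other 17 comparisons had 0 in every fit. Without Adr 3 days replicate 3 and Naïve replicate 4, an alternative chosen after seeing the data, Dbp (-1.38, adjusted p = 0.0452) and Nfil3 (1.56, adjusted p = 0.00798) passed. The sign of Bhlhe40 in Arrest at 0.5 days reversed without Naïve replicate 1 (0.032) and without Arrest 0.5 days replicate 1 (0.02), over a range of -0.28 to 0.032 when 1 library was left out. Other values that moved by over 1.5 times without changing a call included Tef between 0.5 and 1 day in Arrest with the description number as a covariate (-1.02), and, with a pseudocount of 0.1 and with limma-voom, Ciart between 1 and 7 days in Adr (1.45 and 1.66) and Bhlhe41 in Arrest at 0.5 days against the mean of later times (-0.80 and -0.93). Of the relations between factors, 6 passed with group means removed and 15 with them left in, 8 positive and 7 negative. Apart from the fits with fewer samples or more genes tested, the cause of these changes was not tested.

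With the number in the sample title as a replicate block, Dbp (-1.83, adjusted p = 0.0162) and Nfil3 (1.64, adjusted p = 0.0128) passed in Arrest at 0.5 days, 2 factors as without it, and the block changed no other call. The numbers do not pair the samples: 144 same-numbered pairs had correlations of -0.29 to 0.27 between their deviations from the group means, 11 of them over 0.1, and 1 of 37 libraries was closest to its own number. Naïve replicate 5, alone in its number, drops out of that fit. Depth limits Ciart most, at a median of 32 fragments per library, while the other factors had medians of 158 to 1476.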
